A study of Rattus norvegicus with 20 samples.

Results

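Cd74 (ENSRNOG00000018735), RT1-Da (ENSRNOG00000032844) and RT1-Db1 (ENSRNOG00000033215) are the 3 transcripts described here, out of 32883 Ensembl genes listed for each library. They were chosen by name as genes of MHC class II antigen presentation and as a possible readout of macrophages, and all 3 had a value above 0 in all 20 libraries. The tissue was the choroid plexus, the secretory organ inside the brain ventricles that makes cerebrospinal fluid, taken from female Zucker rats at 16 weeks of age. Zucker rats carry the fa allele of the leptin receptor gene, so fa/fa rats overeat and become obese while +/fa rats stay lean. Every lean rat of the study was therefore a carrier of 1 fa allele, and obesity rests on that single genetic lesion. The untreated cohort held 6 lean and 6 obese rats. The injected cohort held 4 lean control rats, given the sesame oil vehicle (VEH) under the skin, and 4 obese + TT rats, given testosterone propionate in the same oil. No obese rat received vehicle and no lean rat received testosterone, so obesity and testosterone cannot be told apart in the injected cohort, and injection cannot be told apart from cohort. The labels give 1 library per rat, and a p-value here measures the spread between these rats.

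MHC class II molecules are cell surface receptors that show peptides from engulfed proteins to CD4+ T cells. Each is a pair of an alpha and a beta chain, and the invariant chain guides the pair to endosomes, where proteases cut both the chain and the antigen. In the choroid plexus these transcripts are best known from macrophages and dendritic cells of the stroma and of the epithelial surface. Cd74 encodes the invariant chain, RT1-Da the alpha chain of the rat counterpart of HLA-DR, and RT1-Db1 a beta chain of the same molecule. RT1-Db1 has a close relative, RT1-Db2, whose reads may be split with it, so levels of RT1-Db1 carry that uncertainty.

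The promoters are shown as background, since class II genes are known for a shared promoter design. It holds the X box bound by the RFX complex and the Y box bound by NF-Y, both read by the coactivator CIITA. Its part in the levels of these rats was not tested. Sequences are from RefSeq on build GRCr8, written on the strand of the gene, with the X box letters TAGCAAC and the Y box letters CTGATTGG in capitals. These letters were chosen after the sequences had been read.
RT1-Da: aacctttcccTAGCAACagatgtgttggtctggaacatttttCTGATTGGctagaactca
RT1-Db1: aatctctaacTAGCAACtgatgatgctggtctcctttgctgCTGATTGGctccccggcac
Cd74: agttccacatTAGCAACgtgggcggagtga

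The RT1-Da stretch is chr20:4515321-4515380 on the plus strand, with the first X letter 84 bases and the first Y letter 52 bases before the annotated start. The RT1-Db1 stretch is chr20:4560227-4560286 on the minus strand, with those letters at 114 and 83 bases. The X and Y letters start 32 bases apart in RT1-Da and 31 bases apart in RT1-Db1. The Cd74 stretch is chr18:56527124-56527153 on the plus strand, with X letters 72 bases before the start, and CTGATTGG is not in its 250 upstream bases. Among 33469 promoters searched on both strands over the same 250 bases, TAGCAAC was in 2.88%, CTGATTGG in 3.19% and both in 0.0896%. X letters followed by Y letters within 40 bases were in 5 promoters (0.0149%), those of RT1-Da, RT1-Db1, Mns1, Nubpl and LOC134482890. The letters came from the sequences above, and the window holds their spacings of 32 and 31 bases. RT1-Da and RT1-Db1 were thus bound to be counted, and the shares are a description and no test. A match describes letters and is no evidence of binding in these rats.

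Levels are given in TPM, which divides out gene length and the total signal of a library. TPM keeps no record of depth, so how many reads stand behind a level is unknown and no counting interval can be given. Between 14968 and 16860 genes were above 0 TPM per library, with the lowest number in lean control rat 14. The transcript of Ttr, the thyroid hormone carrier made by the epithelium, took 31.1 to 39.3% of TPM in the untreated cohort and 25.8 to 30.5% in the injected cohort, without overlap, and a gene with this share moves the TPM of all others. The summed FPKM of a library was 1108541 to 1219937 in the untreated cohort and 920964 to 995159 in the injected cohort. The cohorts thus stood apart as whole libraries, and comparisons of the members between them are given with other scalings. For other genes and lists another scaling is given only where stated, and the remaining values are on the TPM scale alone.

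Cd74 was the most abundant member, RT1-Da the next and RT1-Db1 the lowest in each of the 20 rats. By mean TPM, Cd74 ranked 590 of 17922 genes above 0 in lean rats and 517 of 18109 in obese rats. It ranked 1427 of 17669 in lean control rats and 2198 of 17784 in obese + TT rats. RT1-Da went from rank 1042 in lean and 959 in obese rats to 4072 in lean control and 5544 in obese + TT rats. RT1-Db1 went from 4412 and 3366 in the untreated groups to 9066 and 10579 in the injected groups.

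**Figure D1:**
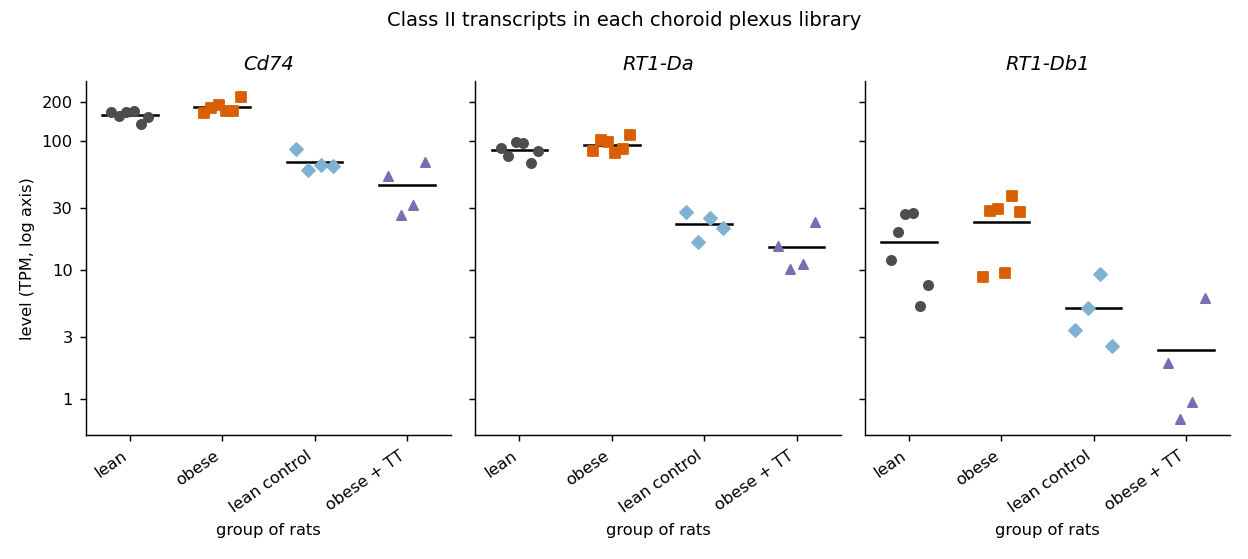
Level in TPM on a log axis of Cd74, RT1-Da and RT1-Db1 in each of the 20 libraries, by group, with 1 point per rat and the group mean as a black line (n = 6, 6, 4 and 4). Cd74 lies between 134 and 218 TPM in the untreated rats and between 26.4 and 87.0 TPM in the injected rats, and RT1-Db1 is spread widely within every group.

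The comparison of obese with lean untreated rats asks what obesity alone goes with. No member passed the threshold, an adjusted p under 0.05 in limma. Cd74 had a lowest level of 134, a median of 161 and a highest of 171 TPM in the 6 lean rats, and 165, 176 and 218 TPM in the 6 obese rats. In 4 obese rats the level was above every lean rat, with rat 12 at the top, and the other 2 lay inside the lean range. The mean was 158 ± 13.6 TPM (SD, n = 6) in lean and 182 ± 19.7 TPM (SD, n = 6) in obese rats, a log2 fold change of 0.20 (standard error, SE, 0.077, 95% interval 0.039 to 0.371). Its two-sided exact permutation p was 0.0195 and its limma p 0.019, but 9.66% of the 15176 genes tested had an unadjusted limma p under 0.05, and the adjusted p of Cd74 was 0.415.

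RT1-Da had 67.1, 85.9 and 98.3 TPM as lowest, median and highest level in lean rats and 80.7, 92.4 and 111 TPM in obese rats. The groups overlapped over most of their range. Its log2 fold change was 0.14 (95% interval -0.085 to 0.358, adjusted p 0.724, exact p 0.253). RT1-Db1 had 5.21, 15.8 and 27.5 TPM in lean rats and 8.85, 28.3 and 37.35 TPM in obese rats, a spread of several fold inside each group. Its log2 fold change was 0.57 with a wide interval of -0.42 to 1.55 (adjusted p 0.745, exact p 0.29). Without lean rat 5 the log2 fold change was 0.29 for RT1-Db1 and 0.07 for RT1-Da, and without obese rat 7 that of RT1-Db1 was 0.81. In all, 0 of the 3 members and 0 of all genes tested (0% called) passed the threshold here. The study itself called genes in this contrast, with DESeq2 on read counts, so the 0% belongs to limma on TPM. Groups did not overlap for 0 members and for 0.54% of all genes tested.

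In the injected cohort, obese + TT rats were compared with lean control rats, the pair in which the study looked for the joint effect of obesity and testosterone. RT1-Da and RT1-Db1 are on the study's own list of genes called in this contrast, made on these samples, so their direction here is not independent evidence. Cd74 had 87.0, 58.9, 64.7 and 63.5 TPM in lean control rats 13 to 16, and 52.9, 26.4, 32.0 and 68.9 TPM in obese + TT rats 17 to 20. Obese + TT rats 17, 18 and 19 were below every lean control rat, and rat 20 was above 3 of the 4. The mean was 68.5 ± 12.6 TPM (SD, n = 4) in lean control and 45.1 ± 19.6 TPM (SD, n = 4) under testosterone, a log2 fold change of -0.69 (SE 0.27, 95% interval -1.30 to -0.083). The adjusted p was 0.627 and the exact p 0.114, where 0.0286 is the smallest that 4 against 4 rats allow.

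RT1-Da had 28.2, 16.3, 25.1 and 20.95 TPM in lean control rats 13 to 16 and 15.2, 10.1, 11.1 and 23.3 TPM in obese + TT rats 17 to 20. RT1-Db1 had 3.39, 5.09, 9.22 and 2.55 TPM against 1.89, 0.69, 0.94 and 6.06 TPM in the same order. For both genes, as for Cd74, rats 17, 18 and 19 were below all lean control rats and rat 20 was inside their range. The log2 fold change was -0.65 for RT1-Da (95% interval -1.23 to -0.071, adjusted p 0.637, exact p 0.114). It was -1.37 for RT1-Db1 (95% interval -2.74 to 0.0046, adjusted p 0.671, exact p 0.143). Relative to RT1-Da, RT1-Db1 lay in a lower range, described below, in 3 of 4 obese + TT and 2 of 4 lean control rats. Its fold change does not separate that split from a change in level.

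None of the 3 members and none of the 15259 genes tested (0% called) passed the threshold between obese + TT and lean control rats in limma on TPM. The study used DESeq2 on read counts, an unlike measure, and called genes in this contrast and in obese against lean rats. The 0% is therefore no evidence that nothing differs within cohorts. Groups without overlap were found for 0 members and 4.02% of all genes. At an unadjusted p under 0.05 in limma, 2 of the 3 members were lower, Cd74 and RT1-Da. Of all genes tested, 3.19% were lower and 7.43% differed in either direction at that level. RT1-Da is on the study's called list for this contrast, so the count of members is not independent evidence beside those shares. Simulated data of this size held 200 genes changed by 0.5 to 2 on the log2 scale, in independent noise. There limma called 62% of 50 genes with a log2 change of 1 and 42% of 50 genes with a change of 0.5. The measured data gave 0 calls, a setting unlike the simulated one, so these rates do not carry over to the members. A difference of the size measured for Cd74 and RT1-Da could still be missed with these 8 rats.

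The contrasts of both cohorts were set against each other in a fit of all 20 libraries. The log2 fold change of obese + TT against lean control rats minus that of obese against lean rats was -0.90 for Cd74 (standard error 0.26, 95% interval -1.44 to -0.35). It was -0.79 for RT1-Da (95% interval -1.34 to -0.23) and -1.94 for RT1-Db1 (95% interval -3.65 to -0.23). The value of RT1-Db1 does not separate level from the unlike shares of rats in its lower range, described below. The unadjusted limma p-values were 0.00268, 0.00762 and 0.0284, in a fit where 8.36% of the 15406 genes had one under 0.05. After adjustment they were 0.366, 0.431 and 0.542, so no difference between the contrasts passed the threshold, and 0% of all genes did. RT1-Da and RT1-Db1 are on the study's called list for the injected contrast, which is part of this difference. Their unadjusted p-values are therefore not independent evidence.

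In lean control against lean rats, all 3 fell, in a comparison where 58.2% of the 15326 genes tested were called, 41.7% higher and 16.5% lower. Rats differing in injection also differ in cohort, and these cannot be told apart. In bulk tissue, fewer cells of a type and less RNA per cell cannot be told apart either. These comparisons share their samples with those above, so their values stand side by side and are not added up as evidence.

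Cd74 was at 58.9 to 87.0 TPM in the 4 lean control rats, below the lowest lean rat at 134 TPM. Its lean mean was 2.30 times the lean control mean, and the log2 fold change was -1.21 with SE 0.10 (adjusted p 1.28e-06, exact p 0.00952). RT1-Da was at 16.3 to 28.2 TPM against a lowest lean level of 67.1 TPM, with a ratio of means of 3.76 and a log2 fold change of -1.92 with SE 0.15 (adjusted p 5.27e-07, exact p 0.00952). RT1-Db1 overlapped between these groups, since lean rats 5 and 6 were at 5.21 and 7.65 TPM and lean control rat 15 at 9.22 TPM. Its ratio of means was 3.25 and its log2 fold change -1.60 with SE 0.48 (adjusted p 0.0132, exact p 0.0381). Groups that did not overlap, with lean control rats lower, were found for 2 of the 3 members and for 10.7% of the genes tested.

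In obese + TT against obese rats the 3 members fell again. Cd74 was at 26.4 to 68.9 TPM against 165 to 218 TPM, RT1-Da at 10.1 to 23.3 against 80.7 to 111 TPM, and RT1-Db1 at 0.69 to 6.06 against 8.85 to 37.35 TPM. No member overlapped between the groups, and the highest obese + TT level always belonged to rat 20. The obese means were 4.04, 6.26 and 9.87 times the obese + TT means. Relative to RT1-Da, RT1-Db1 lay in a lower range, described below, in 3 of 4 obese + TT and 2 of 6 obese rats. The ratio of means and the fold change of RT1-Db1 do not separate that split from a change in level. The log2 fold changes were -2.11 for Cd74 with SE 0.22 (adjusted p 1.12e-05), -2.71 for RT1-Da with SE 0.20 (adjusted p 9.8e-07) and -3.53 for RT1-Db1 with SE 0.58 (adjusted p 0.000237), each with an exact p of 0.00952. In this comparison 58.1% of 15389 genes tested were called, 41.7% higher and 16.4% lower, and 11.7% had groups without overlap and lower levels in obese + TT rats.

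In lean control against lean rats, 6.84% of all genes tested fell as far as Cd74 or further, and 3.49% as far as RT1-Da. In obese + TT against obese rats these shares were 3.2% and 1.9%. Over all genes the median log2 fold change was 0.24 and 0.25 in these comparisons, so the members fell against a background that leaned upward. With TPM divided by median-of-ratios factors, which set typical genes level, that median was 0.04 in both. The log2 fold changes of Cd74, RT1-Da and RT1-Db1 were then -1.43, -2.14 and -1.81 in lean control against lean rats, and -2.33, -2.93 and -3.74 in obese + TT against obese rats. Under that scaling the share of all genes called higher and lower moved to 31.9% and 27.3% in the first and to 30.7% and 26.8% in the second comparison. The 3 members were called lower under each scaling tried.

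Ordered by level, the groups ran obese, lean, lean control and obese + TT for each of the 3 genes. Obese and lean rats overlapped, as did lean control and obese + TT rats, and neither pair of neighbours passed the adjusted limma tests for any member. Lean and lean control rats, the middle neighbours, were apart for Cd74 and RT1-Da and overlapped for RT1-Db1.

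RT1-Da fell further than Cd74 between cohorts, and the ratio of the pair within a library does not depend on how libraries are scaled. The ratio was tested after that had been seen in the same rats, so its p-values are no independent support. Ratios of genes other than the members were not computed, while 58.2% and 58.1% of all genes were called between cohorts. RT1-Da was 0.494 to 0.587 of Cd74 in lean rats (median 0.538) and 0.472 to 0.558 in obese rats (median 0.510). It was 0.324, 0.277, 0.388 and 0.330 of Cd74 in lean control rats 13 to 16, and 0.287, 0.381, 0.347 and 0.339 in obese + TT rats 17 to 20. All 8 injected rats had a lower ratio than all 12 untreated rats. The log2 ratio differed by -0.71 between lean control and lean rats and by -0.60 between obese + TT and obese rats, each with a two-sided exact permutation p of 0.00952 and 0.0381 after Benjamini-Hochberg adjustment over 8 ratio tests. Within cohorts the log2 ratio differed by -0.07 in obese against lean (exact p 0.229, adjusted 0.367) and by 0.04 in obese + TT against lean control rats (exact p 0.686, adjusted 0.686), where leaving out lean control rat 14 turned it to -0.04.

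**Figure D2:**
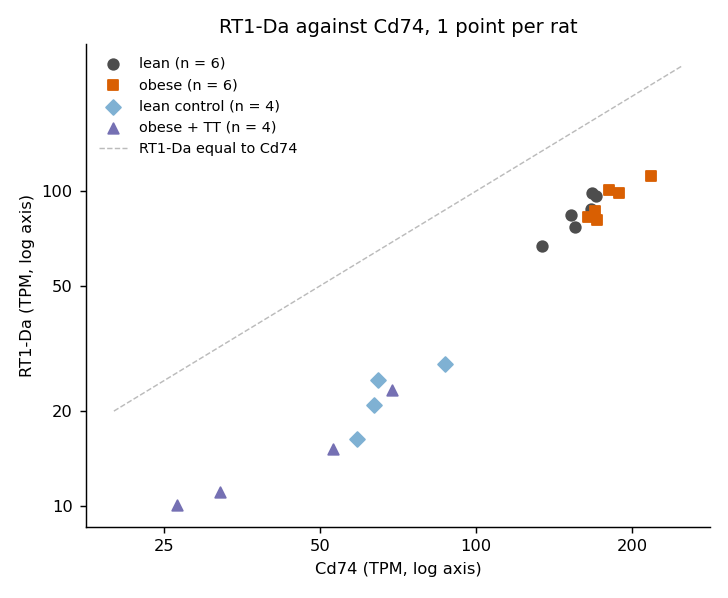
RT1-Da against Cd74 in TPM on log axes, 1 point per rat, with the dashed line where both levels would be equal. The 12 untreated and the 8 injected rats form separate clouds, and the injected rats lie further below the line, with ratios of 0.277 to 0.388 against 0.472 to 0.587.

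The macrophage reading of the members could not be checked as intended. Of 31 macrophage markers listed, 1 has a symbol in the tables used here, Lyz2, which encodes lysozyme of myeloid cells. Of the listed markers of dendritic cells 1 of 11 was named, and of B cells 0 of 8. Symbols were at hand for 2616 of the 32883 genes, most of them abundant or on the study's called lists, so the source cells of the class II transcripts are left unnamed.

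Lyz2 was at 259 to 341 TPM in lean rats, with a median of 299, and at 281 to 357 TPM in obese rats, with a median of 302. It was at 142, 67.2, 219.5 and 102 TPM in lean control rats 13 to 16 and at 74.8, 68.8, 181 and 91.5 TPM in obese + TT rats 17 to 20. All injected rats were below all untreated rats, and Lyz2 fell by 1.29 on the log2 scale in lean control against lean rats (adjusted p 0.000619) and by 1.68 in obese + TT against obese rats (adjusted p 4.51e-05). Lean control rat 15, the highest of its group for Lyz2, was also the highest for RT1-Db1 with 9.22 TPM and had the second highest level of Cd74 with 64.7 TPM, and rat 14 was the lowest for Lyz2, Cd74 and RT1-Da. Obese + TT rat 19, the highest of its group for Lyz2, had 32.0 TPM of Cd74, below rats 17 and 20. These are single rats. For deviations from the group mean over the 20 libraries, Pearson's r of Lyz2 was 0.02 with Cd74, 0.24 with RT1-Da and 0.08 with RT1-Db1.

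Other genes of antigen processing moved both ways. Of 14 listed genes of endosomal processing 8 were named, and in lean control against lean rats 3 rose, 2 fell and 3 were not called, with a median log2 fold change of 0.20 beside 0.24 over all genes. Of all genes 41.7% rose and 16.5% fell, and with median-of-ratios factors the counts of the 8 became 2, 3 and 3, with a median of -0.02. Ctsb, a lysosomal cysteine protease, rose by 0.53 (standard error 0.058) and Ctsc, which activates granule proteases, by 0.36 (standard error 0.080), and both stayed called higher under each scaling. Lgmn, the asparagine endopeptidase that starts invariant chain cleavage, was 0.39 higher, but 0.17 and not called with median-of-ratios factors. Ctsh and Ctsl, further cathepsins, fell by 0.27 and 0.17. In obese + TT against obese rats 5 of the 8 rose, 1 fell and 2 were not called, beside 41.7% and 16.4% of all genes that rose and fell, and the counts became 3, 3 and 2 with median-of-ratios factors.

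Class I antigen presentation, which shows peptides from inside the cell to CD8+ T cells, was represented by 12 of 22 listed genes. In lean control against lean rats 5 rose, 3 fell and 4 were not called, and in obese + TT against obese rats the counts were again 5, 3 and 4. The share that rose, 5 of 12, was that of all genes, 41.7% in both comparisons, and median log2 fold changes of 0.10 and 0.40 stood beside 0.24 and 0.25 over all genes. With median-of-ratios factors these medians were -0.11 and 0.18, 4 rose and 3 fell in the first comparison, and 5 rose and 4 fell in the second, RT1-A2 being the fourth. The 5 that rose in each were Calr, Canx, Pdia3 and Tapbp, which fold and load class I molecules in the endoplasmic reticulum, and Erap1, which trims peptides there. Tapbp in lean control against lean rats was not called with median-of-ratios factors. B2m, the class I light chain, fell by 0.24 and 0.38 and Psmb9, an immunoproteasome subunit, by 0.69 and 1.02, under each scaling as well. The third gene to fall was RT1-CE5 in lean control rats and RT1-S3 in obese + TT rats, both members of the RT1 class I family, whose near-identical copies share reads.

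**Figure D3:**
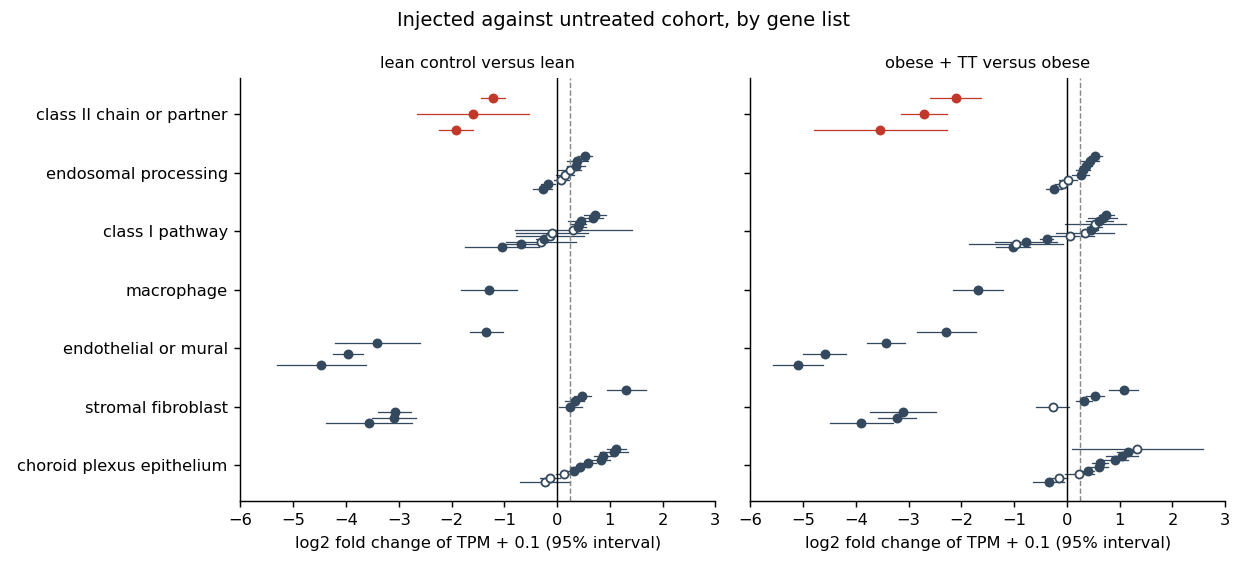
Log2 fold change of TPM + 0.1 with its 95% interval for each named gene of 7 lists, in lean control against lean rats (left) and obese + TT against obese rats (right), with filled points for an adjusted p under 0.05 and a dashed line at the median of all genes. The 3 class II members (red) lie between -1.21 and -1.92 on the left and between -2.11 and -3.53 on the right, and the 4 endothelial or mural markers lie between -1.34 and -5.09.

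Markers of other cells moved with the members between cohorts. The 4 named of 12 endothelial or mural markers all fell in both comparisons, with medians of -3.68 and -4.01 on the log2 scale. They are Plvap, a protein of fenestrated capillaries, Cd93 of endothelium, Rgs5 of pericytes and Tagln of smooth muscle. Their summed level was 183 to 236 TPM in lean, 183 to 293 TPM in obese, 8.86 to 26.2 TPM in lean control and 9.63 to 14.9 TPM in obese + TT rats, and none of the 4 was listed at 0 in any library. The log2 fold changes of Rgs5 were -4.47 and -4.59, larger than those of the members.

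Stromal markers split. Of 7 named of 10, in lean control against lean rats 3 fell, namely Dcn with a log2 fold change of -3.08, Col1a1 with -3.10 and Col6a1 with -3.56, all proteins of the extracellular matrix. The other 4 rose, led by Pdgfra at 1.31, a growth factor receptor of fibroblasts, but only Pdgfra and Igf2 were still called with median-of-ratios factors. In obese + TT against obese rats the log2 fold changes of these matrix genes were -3.22, -3.11 and -3.89. In obese + TT against obese rats 3 also rose, Pdgfra at 1.08, Igf2 at 0.53 and Ogn at 0.33, and 1 was not called, which became 2 higher and 4 lower with median-of-ratios factors. The summed level of the 7 was 1668 to 1874 TPM in lean and 1542 to 1842 TPM in obese rats. It was 2078 to 2437 TPM in lean control and 2137 to 2477 TPM in obese + TT rats, higher in every injected than in every untreated rat. The sum is mostly Igf2, a growth factor, with means of 1410, 1373, 1962 and 1982 TPM in these groups. It does not stand for the matrix genes, which fell. Igf2 was counted as stromal by the list alone, and its source cells were not tested.

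Of the 10 markers of choroid plexus epithelium, all named, 7 rose and 0 fell in lean control against lean rats, with a median of 0.51, and 6 rose and 1 fell, Ttr, in obese + TT against obese rats, with a median of 0.62. Over all genes 41.7% rose in both comparisons, and the medians were 0.24 and 0.25. With median-of-ratios factors the counts were 6 and 1, and 6 and 2. Kl, an enzyme and co-receptor of the apical membrane, rose by 1.12 and 1.16, and Kcnj13, a potassium channel, by 1.08 and 1.04. The summed level of the 10 was 323738 to 404285 TPM in untreated and 274310 to 320113 TPM in injected rats, a sum that is mostly Ttr. The part of the vascular, stromal and epithelial changes in the fall of Cd74, RT1-Da and RT1-Db1 was not tested. Within cohorts no gene of any list was called by limma on TPM.

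Across rats, Cd74 and RT1-Da varied together within each cohort. Over the 12 untreated rats Pearson's r of log2(TPM + 0.1) was 0.889 (permutation p 0.00012, adjusted 0.00072) and Spearman's rho 0.783 (permutation p 0.00348, adjusted 0.0209). Without the 2 rats farthest from the median of Cd74, r was 0.71. Over the 8 injected rats r was 0.955 (exact permutation p 7.44e-05, adjusted 0.00072), rho 0.976 (exact p 0.000397, adjusted 0.00476) and r without the 2 farthest rats 0.891. Adjustment was over 12 tests of each coefficient, and no r is given over all 20 rats because the cohorts separate.

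Inside single groups the same pair was measured with fewer rats. In the 6 lean rats r was 0.934 (exact p 0.00833, adjusted 0.021) and rho 0.886 (exact p 0.0333, adjusted 0.05), with r of 0.775 without the 2 farthest rats. In the 6 obese rats r was 0.912 (exact p 0.0111, adjusted 0.021) and rho 0.771 (exact p 0.103, adjusted 0.123), with r of 0.870 without the 2 farthest rats. Lean rat 5 had the lowest level of both genes among untreated rats, and obese rat 12 the highest. Leaving out lean rat 5 left r at 0.836 with an adjusted p of 0.15, and leaving out obese rat 7, 11 or 12 left r at 0.889, 0.904 or 0.867 with adjusted p-values of 0.0778, 0.0556 and 0.0917.

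RT1-Db1 fell into separate ranges inside groups, so its 8 correlations with the other members mix those ranges and are given as description. Over the 12 untreated rats r was 0.679 with Cd74 and 0.751 with RT1-Da (adjusted permutation p 0.021 and 0.0194). Over the 8 injected rats r was 0.82 and 0.83 (adjusted permutation p 0.0211 and 0.021). Without the 2 rats farthest from the median of Cd74 or RT1-Da these were 0.56 and 0.62 in untreated and 0.227 and 0.456 in injected rats. Inside single groups only the pair with Cd74 in the 6 lean rats had an adjusted p under 0.05 (r 0.835, adjusted permutation p 0.0259). The ratio of RT1-Db1 to RT1-Da took values of 0.0685 to 0.135 in 10 rats and of 0.251 to 0.432 in the other 10. The widest gap between neighbours, 0.89 on the log2 scale, lay between those ranges. The next widest gap was 0.24. The lower range held 3 of 6 lean, 2 of 6 obese, 2 of 4 lean control and 3 of 4 obese + TT rats. No difference in this ratio between groups passed the threshold, with exact p-values of 0.351 for obese against lean, 0.229 for obese + TT against lean control, 0.562 for lean control against lean and 0.124 for obese + TT against obese rats (adjusted 0.33 to 0.642). In lean rats 1, 5 and 6 the ratio was 0.135, 0.0776 and 0.091, and in lean rats 2, 3 and 4 it was 0.257, 0.273 and 0.284.

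The same rats were set apart by RT1-A2, a class I gene of the same complex on chromosome 20. RT1-A2 was also the gene most like RT1-Db1 among 12094 ranked in these libraries, so it gives no independent support for the ranges. It was at 44.1 to 80.7 TPM in the 10 rats with the lower RT1-Db1 ratio and at 134 to 355 TPM in the 10 with the higher ratio. Obese rat 11 and lean control rat 15 stood at the far end. They had the highest ratios, 0.432 and 0.367, and the highest levels of RT1-A2, 355 and 258 TPM. They also had the lowest levels of RT1-A1, 54.4 and 46.6 TPM, of RT1-CE5, 25.5 and 15.5 TPM, and of RT1-CE7, 24.0 and 23.3 TPM. Since these ranges were seen in the data, they are described and not tested. RT1 genes are many and alike, and how reads were divided among them can move each of these levels.

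**Figure D4:**
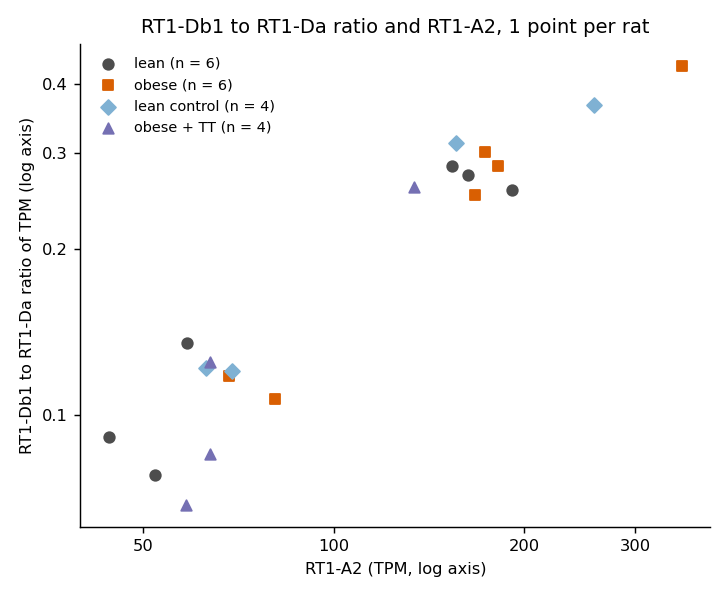
Ratio of RT1-Db1 to RT1-Da against RT1-A2 in TPM, both on log axes, 1 point per rat. Rats of all 4 groups fall into a lower cloud, with ratios up to 0.135 and RT1-A2 up to 80.7 TPM, and an upper cloud, with ratios from 0.251 and RT1-A2 from 134 TPM, and no rat lies between.

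Likeness to each member was ranked over 12094 genes by Pearson's r of deviations from the group mean over the 20 libraries, as a description. For Cd74 the gene most like it was RT1-Da, with r 0.91, and the next were ENSRNOG00000023485 and ENSRNOG00000042139, both at 0.86 and without a symbol here. For RT1-Da it was Cd74, and the next, without a symbol, reached 0.83. RT1-Db1 ranked 58 for Cd74 and 14 for RT1-Da. For RT1-Db1 the gene most like it was RT1-A2, with r 0.88, whereas RT1-A1 had r -0.81, the lowest of all genes ranked, and both values span the separate ranges of RT1-Db1. Lyz2 had r 0.02 with Cd74 and 0.24 with RT1-Da. Dcn, the matrix proteoglycan decorin, had r 0.66 with RT1-Da at rank 21 and 0.43 with Cd74.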

How the data were processed

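Choroid plexus RNA of 20 rats was sequenced as paired-end libraries. The authors mapped reads to Rnor_6.0 with STAR 2.7.9a and ran DESeq2 (listed as 3.16) on gene counts that were not used here. The submitters' processing notes also list RSEM 1.3.3. The authors deposited TPM and FPKM for 32883 Ensembl genes per rat. TPM was analysed, and deposited FPKM was only summed per library. Symbols for 2616 genes came from the study's supplementary tables, which are shortened here.

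Log2(TPM + 0.1) was tested with limma 3.58.1 in R 4.3.3, with a trend in eBayes, keeping genes whose mean over a fit's libraries reached 0.1 TPM. P-values are two-sided with Benjamini-Hochberg adjustment over all genes tested, and calls need an adjusted p under 0.05. The fold scale understates changes of low genes. The test was checked on simulated data with 200 changed genes. Single values were compared by exact permutation tests in SciPy 1.17.1. Named genes are the 3 members, listed genes whose mean reached 10 TPM or that were called in a comparison, and the genes most like each member. Members and gene lists were chosen with earlier results of these data known. Other pseudocounts, filters, scalings and left-out rats were tried. Among 42 pairs of one group, at most 1.92% of values were identical, and no library was counted as a duplicate.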

Additional observations from a re-analysis of the deposited data

Results flagged for a closer look

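Among 80 sets of 4 to 6 rats, formed by listed genes within groups, 4 held a rat far from the others, where 4 would be found by chance at 1 in 20. RT1-A1 was at 82.2 TPM in obese + TT rat 20, against 141 to 148 TPM in the other 3 rats of its group. RT1-A2 was at 134 TPM in the same rat, against 58.3 to 63.8 TPM in the others. Obese + TT rat 20 was also the 1 rat of its group in the higher range of the RT1-Db1 to RT1-Da ratio, at 0.26. Col1a1, a matrix collagen, was at 1.47 TPM in rat 20, against 0.53 to 0.61 TPM. Cd93, an endothelial receptor, was at 0.6 TPM in obese + TT rat 18, against 0.98 to 1.04 TPM.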

How the results depend on the processing

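The log2 fold changes of Cd74, RT1-Da and RT1-Db1 kept their direction and their side of the threshold in every comparison under each pseudocount, filter, scaling, fit of all 20 libraries, robust setting and left-out rat. For RT1-Db1 in lean control against lean rats the adjusted p reached 0.0492 when a rat was left out. Counts of all genes called moved where 0 had been called. For obese against lean rats there were 3 with all 20 libraries, 1 with median-of-ratios factors, and 0 to 1 with a rat left out (1 without lean rat 2, lean rat 6 or obese rat 7). For obese + TT against lean control rats there were 6 with all 20 libraries and 0 to 25 with a rat left out, 25 without lean control rat 13, 4 without obese + TT rat 19, 3 without lean control rat 15, 2 without obese + TT rat 17 and 1 without lean control rat 14 or obese + TT rat 20. For the difference between contrasts there were 1 with a mean of at least 1 TPM, 10 rescaled without Ttr, 2 with median-of-ratios factors, 1 with the robust setting and 0 to 14 with a rat left out, 14 without lean control rat 13, 4 without obese + TT rat 20, 3 without lean control rat 15, 2 without obese + TT rat 17 and 1 without lean rat 5 or obese rat 9. No member was among these calls, and the cause was not tested. The log2 ratio of RT1-Da to Cd74 in obese + TT against lean control rats ran from -0.04 to 0.12, with -0.042 without lean control rat 14 and -0.02 without obese + TT rat 18. With a rat left out, r of Cd74 and RT1-Da ran from 0.836 to 0.967 in lean and from 0.867 to 0.968 in obese rats. In the cohort comparisons the share of higher calls fell from 71.6% to 62.6% rescaled without Ttr and 53.9% with median-of-ratios factors in lean control against lean rats, and from 71.8% to 58.6% and 53.4% in obese + TT against obese rats. The ratios and the scalings of listed genes were added after seeing the data. No paired analysis was possible because rats are numbered through from 1 to 20 and groups share no number. Depth behind a TPM is unknown, so noise of low values such as RT1-Db1 in obese + TT rats was not separated from differences between rats.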

Other observations

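Some further listed genes were named and are given as values. Nfya was the 1 gene named of 8 listed for class II transcription, Ifi27 of 25 for interferon response and Gja1 of 11 for brain parenchyma. A single gene does not stand for its list. Of all genes 41.7% were called higher in both cohort comparisons, and 16.5% and 16.4% lower. Nfya, a subunit of the NF-Y factor of class II promoters, had a mean of 4.15 TPM in lean, 5.76 TPM in obese, 7.70 TPM in the vehicle group and 6.70 TPM with testosterone. It rose by 0.88 on the log2 scale in lean control against lean rats and was not called in obese + TT against obese rats (0.21, and -0.01 with median-of-ratios factors). Ifi27, a gene induced by interferon, fell by 0.56 and 0.53. Gja1, a gap junction protein of astrocytes and other cells, fell by 1.74 and 0.90. Fscn1, an actin bundling protein of mature dendritic cells, was called in neither, with log2 fold changes of -0.65 and -0.54, although it was called lower in the second with median-of-ratios factors. None of 5 erythroid genes, such as Hba-a1 of haemoglobin, was called in either comparison, although Hba-a1 and Hba-a2 were called lower in lean control against lean rats with median-of-ratios factors.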
